A study of Mus musculus with 13 samples.

Results

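The T cell receptor signalling genes described here are 32 named genes, all of them found among 24300 genes of the RNA-seq table and all of them expressed highly enough to be tested. They cover the CD3 receptor chains and the CD4 coreceptor, surface receptors, proximal kinases, adaptors, effector enzymes, NFAT factors and negative regulators. The T cell receptor has no enzyme of its own. On contact with antigen the kinase Lck phosphorylates the CD3 chains, Zap70 docks there and phosphorylates the adaptors Lat and SLP-76, and enzymes assembled on these adaptors drive calcium, Ras and NF-kB signalling. Ubiquitin ligases, phosphatases and diacylglycerol kinases dampen each step, and regulatory T cells, which restrain immune responses through the factor Foxp3, need receptor signals to work.

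Both genotypes were male C57BL/6 mice in which the Foxp3 gene drives Cre recombinase and a yellow fluorescent protein, so Cre acts in cells that express Foxp3. The mice called CAT also carried the Ctnnb1flex3 allele, from which Cre removes exon 3 of Ctnnb1, and the resulting beta-catenin is known to be stabilised. WT mice carried the Foxp3 Cre-YFP allele alone. For RNA-seq (3 WT and 3 CAT libraries) and ATAC-seq (3 WT and 2 CAT libraries), a map of open chromatin, YFP+CD25+ cells were sorted from enriched CD4 T cells of lymph nodes at 21 days of age. Binding of TCF1, a DNA-binding partner of beta-catenin, was mapped by ChIP-seq in 1 WT library from lymph nodes and spleen of mice aged 10 to 12 weeks, and no CAT library was measured. Nothing in the labels says that libraries of a genotype came from separate mice, so the spread behind each p-value is that of these samples and may be partly technical.

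The RNA libraries held 24124086 to 31527245 fragments in genes. WT replicates 1 and 3 had fragments on 19682 and 19776 genes, against 15764 to 16079 in the other 4 libraries, and CAT replicate 3 stood apart from the other CAT libraries, at -23.9 on the second principal component (6.38% of the variance) against 13.5 and 6.68. Regulatory T cell markers were present in every library, with sums of 4000 to 4220 CPM (fragments relative to the adjusted library total) in WT and 7790 to 9300 in CAT, and 6 of these 7 genes rose. Il2ra, which encodes the CD25 used in the sort, was at 332 ± 18.6 CPM in WT and 901 ± 57.8 in CAT (mean ± SD, n = 3). The 10 markers of CD8 T and NK cells summed to 31.0 to 34.9 CPM in WT and 82.1 to 92.6 in CAT, with 5 higher and 1 lower. Of the CD8 chain genes Cd8b1 rose from 8.49 ± 0.766 to 24.5 ± 5.08 CPM (adjusted p = 7.12e-05) and Cd8a from 0.284 ± 0.224 to 1.04 ± 0.252 CPM (adjusted p = 0.0117). Nkg7, at 9.2 to 13.4 CPM in WT and 22.4 to 41.1 in CAT, rose as well (adjusted p = 0.0004), as did Prf1 and Klrk1. Xcl1 fell from 0.671 ± 0.47 to 0.026 ± 0.0228 CPM (edgeR, adjusted p = 0.0024). Klrb1c, at 0.918 ± 0.351 CPM in WT and 0.487 ± 0.308 in CAT, did not pass. The 7 B cell markers summed to 21.1 to 27.0 CPM in WT and 11.5 to 18.8 in CAT (0 higher, 1 lower), the 8 myeloid markers to 12.5 to 16.6 and 9.2 to 12.8 CPM (2 higher, 2 lower), and the 6 thymocyte markers to 38.6 to 45.8 and 29.3 to 30.7 CPM (1 higher, 1 lower). Most of the thymocyte sum was Cd1d1, at 36.4 to 43.6 CPM in WT and 26.9 to 28.3 in CAT. The 1 higher thymocyte marker was Cd8a, also counted among the CD8 markers. The 6 stromal and epithelial markers summed to 174 to 183 CPM in WT and 98.7 to 110 in CAT, with 2 higher and 1 lower. Among them Pecam1 fell from 168 ± 4.44 to 56.8 ± 8.21 CPM, while Col1a2 rose from 0.568 ± 0.0515 to 20.3 ± 7.17 CPM and Epcam from 7.96 ± 0.651 to 25.3 ± 4.59 CPM. Erythroid markers stayed at or under 3.03 CPM, and the 2 of 5 gamma delta T cell markers in the table at or under 0.699 CPM. The part of other cell types in the results that follow was not tested. The total of Ctnnb1, at 478 ± 21.7 CPM in WT and 446 ± 41.1 in CAT, does not check the removal of 1 exon.

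Expression of the signalling genes moved in both directions in CAT cells. Malt1 rose most, 2.60-fold, and Ptpn22, Cblb, Rasgrp1, Zap70, Ubash3b, Nfatc2, Lcp2 and Plcg1 rose with it. Ptpn6 fell most, to 0.447 of its WT level, and Cd28, Grap2, Prkcq, Fyn, Dgkz, Cd3g and Cd247 fell with it. In all, 9 of the 32 genes were higher, 8 were lower and 15 did not pass (edgeR quasi-likelihood test, Benjamini-Hochberg adjusted over 13193 genes, threshold 0.05). Among all tested genes 49.0% passed, 25.5% higher and 23.5% lower, and 53.1% of the signalling genes passed, a share near this background. Their median log2 change was 0.02 and their median absolute log2 change 0.24, against 0.00 and 0.36 over all tested genes. CPM values of the genotypes did not overlap for 11 genes higher and 8 genes lower in CAT, beside 30.1% and 29.1% of all tested genes. In a bulk sample fewer cells of a type and less RNA per cell cannot be told apart.

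**Figure D1:**
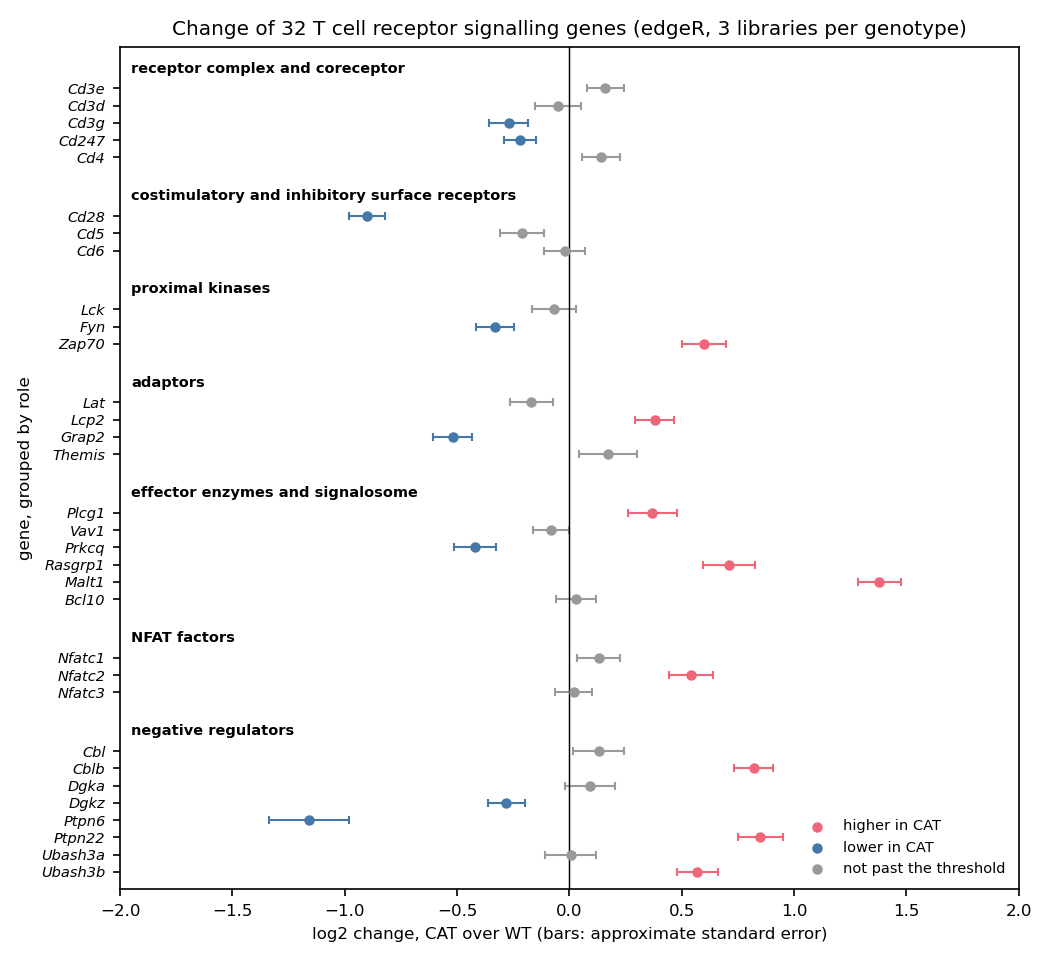
Log2 change of CAT over WT (horizontal axis) with its approximate standard error (bars) for the 32 genes, grouped by role, 3 libraries per genotype. Changes run from -1.16 for Ptpn6 to 1.38 for Malt1, and most roles hold genes on both sides of 0.

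The receptor complex itself differed little. Cd3e, Cd3d, Cd3g and Cd247 encode the epsilon, delta, gamma and zeta signalling chains that carry the receptor's activation motifs. Cd3g was at 575, 524 and 523 CPM in WT replicates 1 to 3 and at 414, 451 and 481 CPM in CAT, so every CAT library lay under every WT library. It fell by 0.27 ± 0.0879 on the log2 scale (± SE, adjusted p = 0.0297). Cd247 was at 377, 363 and 368 CPM in WT and at 321, 325 and 306 CPM in CAT, again with no overlap, and its log2 change was -0.22 ± 0.073 (adjusted p = 0.0325). These were the smallest changes that passed among the signalling genes, and neither was firm. The call on Cd247 was lost without any 1 of the 6 libraries (adjusted p from 0.0547 to 0.0812, and 0.0149 to 0.205 over all 16 alternatives), and that on Cd3g without WT replicate 1 or 2 or CAT replicate 1 or 2 (adjusted p up to 0.117, and 0.0101 to 0.209 over all alternatives). Cd3e, at 155 to 162 CPM in WT and 167 to 194 in CAT, did not overlap between genotypes, yet its log2 change of 0.16 did not pass (adjusted p = 0.13). Cd3d lay at 294 to 336 CPM in WT and 272 to 333 in CAT, and the groups overlapped. The coreceptor gene Cd4, whose protein was also used to enrich the cells, was at 567 to 609 CPM in WT and 626 to 710 in CAT (log2 change 0.14, adjusted p = 0.197). Levels per transcript length were very unequal within the complex. In WT cells Cd3g was at 606 ± 2.64 FPKM (fragments scaled to transcript length and library size by the authors), Cd3d at 274 ± 24.2, Cd247 at 225 ± 6.9 and Cd3e at 119 ± 6.22 FPKM.

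A TCF1 peak of WT cells lay at a listed promoter of Cd3g and of Cd247. The sequences are shown because the peak and an ATAC region found in all 5 libraries coincide there. Each is the 250 bases before the RefSeq start on GRCm38.p6, the assembly behind mm10, read 5′ to 3′ along the gene, with the bases under the TCF1 peak in capitals.
Cd3g promoter, chr9:44980432-44980681, minus strand: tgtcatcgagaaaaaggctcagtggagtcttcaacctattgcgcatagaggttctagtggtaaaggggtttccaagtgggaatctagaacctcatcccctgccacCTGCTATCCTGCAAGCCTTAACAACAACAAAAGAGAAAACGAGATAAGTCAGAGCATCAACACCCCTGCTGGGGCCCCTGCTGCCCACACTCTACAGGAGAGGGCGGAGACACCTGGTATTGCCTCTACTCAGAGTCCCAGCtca
Cd247 promoter, chr1:165788431-165788680, plus strand: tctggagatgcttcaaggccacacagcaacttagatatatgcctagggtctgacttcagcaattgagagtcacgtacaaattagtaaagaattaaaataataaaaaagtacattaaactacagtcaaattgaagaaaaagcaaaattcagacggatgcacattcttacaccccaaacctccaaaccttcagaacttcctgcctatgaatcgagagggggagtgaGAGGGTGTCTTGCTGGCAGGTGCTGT
The whole peak of 142 bases fell within the Cd3g promoter, centred 74 bases before the start. The same peak lay 1264 bases before the start of Cd3d, which is transcribed the other way from the same interval. At Cd247 the peak straddled the listed start, with 26 of its bases in the promoter. This start lies inside the gene, and the peak was centred 8773 bases past the 5′ end of the span. No TCF1 peak lay at that 5′ end. Listed promoters of 9 signalling genes held such a peak, among them genes whose RNA change did not pass.

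Of the 3 surface receptors, which tune the receptor signal from outside, Cd28 changed. CD28 is the main costimulatory receptor of T cells. Its gene was at 506, 564 and 515 CPM in the WT libraries and at 283, 276 and 293 CPM in the CAT libraries, which were all near 0.538 of the WT mean and far below the lowest WT value. Cd28 fell by 0.90 ± 0.0802 on the log2 scale (edgeR, adjusted p = 2.65e-05) and passed in every alternative run. Cd5, a scavenger-type receptor that dampens signalling and is known to track its strength, was at 436, 466 and 491 CPM in WT and at 409, 357 and 439 CPM in CAT. CAT replicate 3 reached into the WT range, and the log2 change of -0.21 did not pass (adjusted p = 0.102). Without CAT replicate 3 it passed, at -0.28 with an adjusted p of 0.0389 (0.0286 to 0.359 over all alternatives). The related receptor gene Cd6 lay at 619 to 650 CPM in WT and 571 to 688 in CAT, and the groups overlapped (log2 change -0.02, adjusted p = 0.878). After quantile normalization with limma it passed, at -0.34 with an adjusted p of 0.0453 (up to 0.977 in the other alternatives).

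The proximal kinases moved apart. Zap70, the kinase recruited to phosphorylated CD3 chains, was at 179, 196 and 215 CPM in WT and at 302, 274 and 321 CPM in CAT. Every CAT library lay above every WT library, and Zap70 rose 1.52-fold (log2 change 0.60 ± 0.0968, adjusted p = 0.00081). On FPKM values with limma the change was 0.51 and the call was lost (adjusted p = 0.065, within 6.19e-08 to 0.21 over all alternatives). Fyn, a Src family kinase that overlaps in function with Lck, was at 455, 462 and 474 CPM in WT and at 353, 352 and 403 CPM in CAT, with no overlap. It fell by 0.33 ± 0.0835 (adjusted p = 0.00977), and without CAT replicate 2 the call was narrowly lost, at -0.29 with an adjusted p of 0.0522 (0.000938 to 0.0993 over all alternatives). Lck, the Src family kinase that starts the cascade, was at 693 to 709 CPM in WT and spread from 589 to 748 in CAT around that range (log2 change -0.07, adjusted p = 0.58). Within each library Lck stood highest of these kinases by FPKM, at 369 ± 26.5 in WT and 350 ± 23.7 in CAT. The ratio of Zap70 to Lck FPKM ran from 0.328 to 0.379 in WT and from 0.466 to 0.719 in CAT, while that of Fyn to Lck ran from 0.348 to 0.393 in WT and 0.301 to 0.327 in CAT. These and the later pairs were chosen after their values were seen, so the ratios are given without a test.

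Zap70 is the promoter shown next, chosen for its sequence. It was the only 1 of the 9 listed promoter windows with a TCF1 peak to hold the letters CTTTGA on either strand. These letters are 1 form of the core of the known TCF motif, and other forms were not searched for. The match begins 21 bases before the start and lies among the capitals, which mark the bases under the peak.
Zap70 promoter, chr1:36761548-36761797, plus strand: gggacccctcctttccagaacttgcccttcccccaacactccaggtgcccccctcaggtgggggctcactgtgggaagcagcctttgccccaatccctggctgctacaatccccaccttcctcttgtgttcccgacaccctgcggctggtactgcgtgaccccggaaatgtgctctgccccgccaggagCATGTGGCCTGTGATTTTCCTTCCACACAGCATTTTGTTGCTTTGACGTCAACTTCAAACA
Over all 39 promoters of the 27 genes with a RefSeq entry 15.4% held these letters, against 13.8% of 32851 mouse promoters of the same length. A match describes these letters only and is no measured site.

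**Figure D2:**
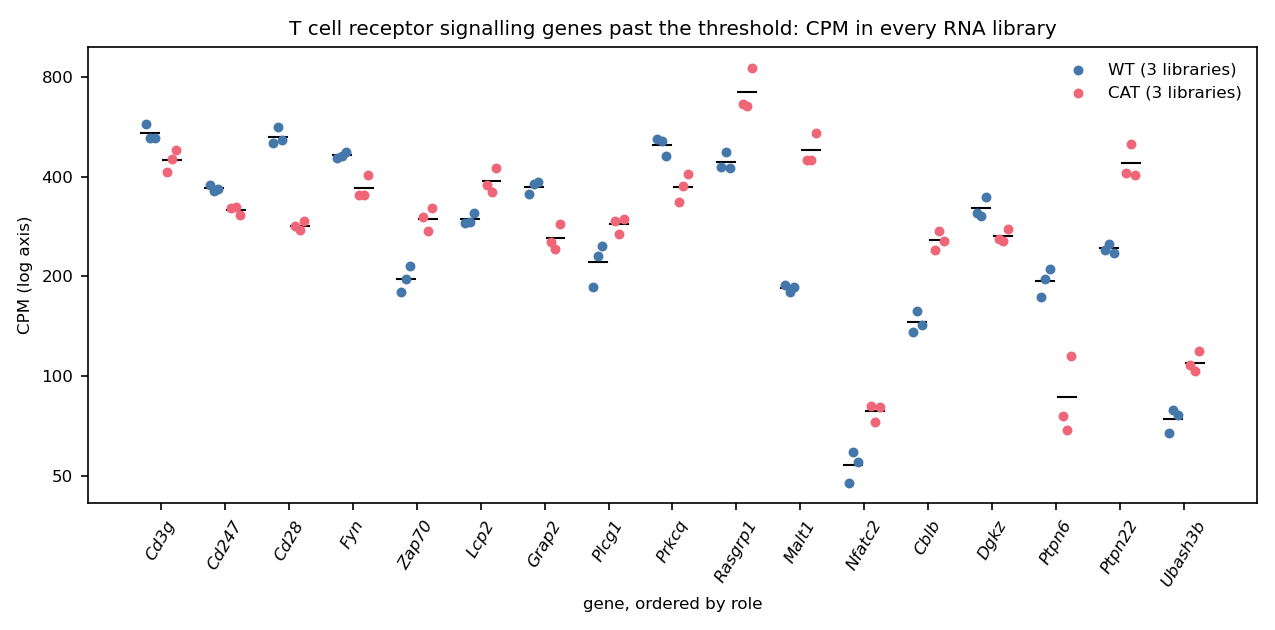
CPM (log axis) of the 17 genes past the threshold in every RNA library, as points with the mean of each genotype as a line, 3 libraries per genotype. In each gene the WT and CAT points do not overlap, and CAT replicate 3 lies apart from the other CAT points in Ptpn6 and Rasgrp1.

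Adaptors, the scaffolds on which the signal assembles, changed in opposite directions. Lcp2 encodes SLP-76 and Grap2 encodes Gads, the adaptor that bridges SLP-76 to Lat. Lcp2 was at 290, 292 and 310 CPM in WT and at 376, 360 and 425 CPM in CAT, with all CAT libraries higher, and it rose 1.30-fold (log2 change 0.38 ± 0.0873, adjusted p = 0.00586). This call was lost on FPKM values with limma (adjusted p = 0.0535, within 0.000291 to 0.28 over all alternatives). Grap2 was at 355, 380 and 384 CPM in WT and at 254, 242 and 287 CPM in CAT, with all CAT libraries lower, and it fell by 0.52 ± 0.0884 (adjusted p = 0.00117). The ratio of Grap2 to Lcp2 FPKM was 0.751 to 0.858 in the WT libraries and 0.408 to 0.446 in the CAT libraries. Lat, the membrane scaffold, was at 495, 436 and 444 CPM in WT and 394, 376 and 449 CPM in CAT, where 1 CAT library overlapped the WT range. Its log2 change of -0.17 did not pass (adjusted p = 0.161), although without CAT replicate 3 it did, at -0.25 with an adjusted p of 0.0458 (up to 0.573 in the other alternatives). Themis, an adaptor best known from thymocyte selection, was at 166, 152 and 141 CPM in WT and at 137, 186 and 191 CPM in CAT. CAT replicate 1 lay under all WT libraries and the other CAT libraries above them, and the log2 change was 0.17 (adjusted p = 0.315), or 0.30 without CAT replicate 1 (adjusted p = 0.0382, and up to 0.712 in the other alternatives).

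Among the effector enzymes 3 of 6 genes rose and 1 fell. Malt1 encodes the paracaspase that joins Bcl10 in a complex leading to NF-kB. It was at 188, 179 and 186 CPM in WT and at 449, 448 and 543 CPM in CAT, so the lowest CAT library stood far above the highest WT library. Its log2 change was 1.38 ± 0.0957 (adjusted p = 6.49e-06). Bcl10, its partner, was at 73.5 to 80.8 CPM in WT and 74.8 to 87.2 in CAT, and the groups overlapped (log2 change 0.03, adjusted p = 0.772). The ratio of Malt1 to Bcl10 FPKM went from 0.849 ± 0.0726 in WT to 2.17 ± 0.461 in CAT (mean ± SD, n = 3). Rasgrp1, the diacylglycerol-activated exchange factor for Ras, was at 427, 474 and 424 CPM in WT and at 660, 654 and 851 CPM in CAT. All CAT libraries were higher and CAT replicate 3 was highest, and Rasgrp1 rose 1.63-fold (log2 change 0.71 ± 0.116, adjusted p = 0.000896). Its call was lost with limma after quantile normalization (0.55, adjusted p = 0.0543) and with WT replicate 2 alone for WT (0.60, adjusted p = 0.0573), the highest of all alternatives, which began at 8.17e-10. Plcg1, the phospholipase that makes diacylglycerol and inositol trisphosphate, was at 186, 230 and 247 CPM in WT and at 293, 269 and 299 CPM in CAT, with no overlap. It rose by 0.37 ± 0.11 on the log2 scale (adjusted p = 0.0189), a call lost without CAT replicate 1 (adjusted p = 0.0528, within 0.00133 to 0.147 over all alternatives). Prkcq encodes protein kinase C theta, which links diacylglycerol to NF-kB signalling. It was at 518, 512 and 462 CPM in WT and at 335, 374 and 406 CPM in CAT, with every CAT library lower, and it fell by 0.42 ± 0.095 (adjusted p = 0.00528). Vav1, an exchange factor that acts on the cytoskeleton, lay at 193 to 219 CPM in WT and 190 to 205 in CAT (log2 change -0.08, adjusted p = 0.465).

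NFAT factors enter the nucleus once calcineurin removes their phosphates. Nfatc2 was the lowest of the 32 genes by FPKM, at 9.37 ± 0.66 in WT and 13.4 ± 1.28 in CAT. It was at 47.9, 59 and 55.3 CPM in WT and at 81.3, 72.8 and 81.1 CPM in CAT, with no overlap, and rose 1.45-fold (log2 change 0.54 ± 0.0973, adjusted p = 0.00164). With WT replicate 2 alone for WT the call was lost (adjusted p = 0.0648, within 3.01e-06 to 0.0648 over all alternatives). Nfatc1 lay at 101 to 119 CPM in WT and 113 to 133 in CAT, and Nfatc3 at 256 to 271 and 244 to 282 CPM. Both overlapped between the genotypes and did not pass (log2 changes 0.13 and 0.02, adjusted p = 0.278 and 0.891).

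Of the 8 negative regulators 3 rose and 2 fell, and some passed while a related gene did not. Cblb encodes a ubiquitin ligase that raises the threshold of T cell activation. It was at 136, 157 and 143 CPM in WT and at 241, 274 and 255 CPM in CAT, with all CAT libraries higher, and rose 1.76-fold (log2 change 0.82 ± 0.0879, adjusted p = 7.89e-05). Its relative Cbl was at 128 to 166 CPM in WT and 149 to 183 in CAT, and the groups overlapped (log2 change 0.13, adjusted p = 0.382). Ptpn22, a phosphatase that acts on Lck and Zap70, was at 241, 251 and 236 CPM in WT and at 410, 501 and 403 CPM in CAT. No libraries overlapped, and the log2 change was 0.85 ± 0.0991 (adjusted p = 0.000126). Ptpn6 encodes the phosphatase SHP-1. It was at 174, 197 and 211 CPM in WT and at 75.9, 68.8 and 115 CPM in CAT, where replicate 3 lay highest but still under every WT library. Ptpn6 fell by 1.16 ± 0.177 on the log2 scale (adjusted p = 0.000611). The ratio of Ptpn6 to Ptpn22 FPKM was 0.991 to 1.20 in WT and 0.174 to 0.362 in CAT.

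Of Ubash3a and Ubash3b, which encode the Sts phosphatases, only Ubash3b passed. Ubash3b was at 67.6, 79 and 76.3 CPM in WT and at 108, 104 and 119 CPM in CAT, with no overlap, and rose 1.49-fold (log2 change 0.57 ± 0.0913, adjusted p = 0.000794). Ubash3a lay at 241 to 276 CPM in WT and 231 to 306 in CAT, with a log2 change of 0.01 (adjusted p = 0.972). Dgkz and Dgka encode diacylglycerol kinases, which remove the lipid that Rasgrp1 and protein kinase C theta need. Dgkz was at 311, 305 and 346 CPM in WT and at 260, 255 and 279 CPM in CAT, with all CAT libraries lower. It fell by 0.28 ± 0.0833 (adjusted p = 0.0212), and the call was lost without WT replicate 3 or CAT replicate 1 or 2 (adjusted p up to 0.087, and 0.00734 to 0.231 over all alternatives). Dgka, at 712 to 807 CPM in WT and 750 to 950 in CAT, overlapped and did not pass (log2 change 0.09, adjusted p = 0.541). Differences between the members of these pairs in their response were not tested.

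**Figure D3:**
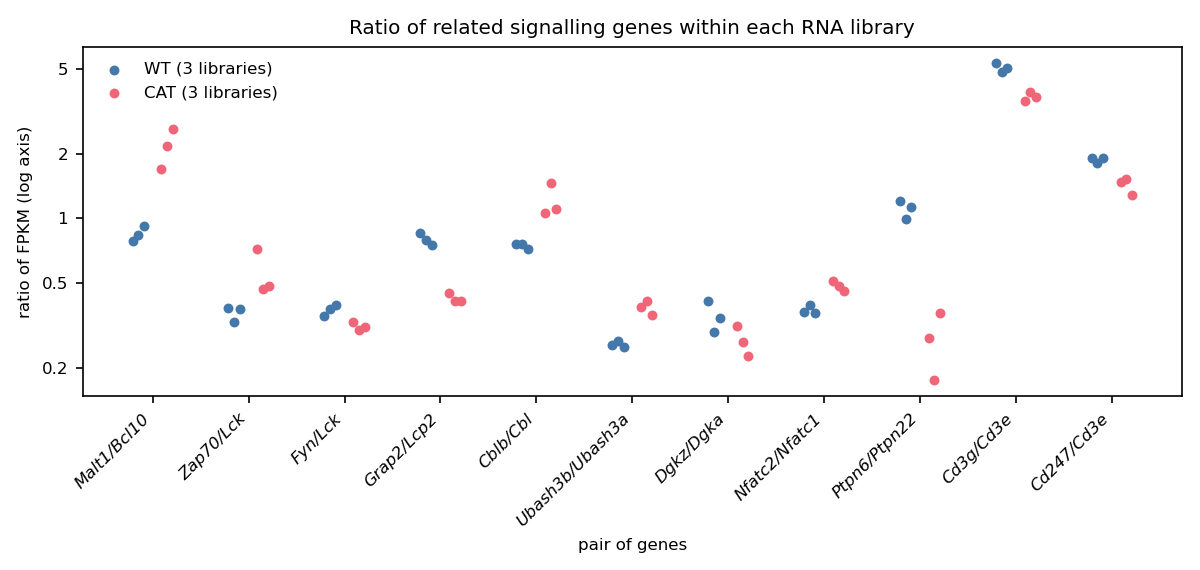
Ratio of FPKM values (log axis) of related or interacting genes within each RNA library, 3 WT and 3 CAT points per pair. The pairs were chosen after their values were seen, so the number that separate is not a result. WT and CAT points overlap only for Dgkz over Dgka, where WT ran from 0.293 to 0.41 and CAT from 0.227 to 0.312.

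Promoters of 2 negative regulators, 1 higher and 1 lower in CAT, are shown because a TCF1 peak of WT cells and an ATAC region of all 5 libraries met there too. Capitals mark the bases under the TCF1 peak, 108 at Ptpn22 and 142 at Dgkz.
Ptpn22 promoter, chr3:103860027-103860276, plus strand: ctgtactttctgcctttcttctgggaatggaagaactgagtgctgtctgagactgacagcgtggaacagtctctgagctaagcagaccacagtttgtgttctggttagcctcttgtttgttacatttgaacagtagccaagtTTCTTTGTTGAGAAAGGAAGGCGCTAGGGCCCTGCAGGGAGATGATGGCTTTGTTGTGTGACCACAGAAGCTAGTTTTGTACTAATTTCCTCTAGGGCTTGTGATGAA
Dgkz promoter, chr2:91963564-91963813, minus strand: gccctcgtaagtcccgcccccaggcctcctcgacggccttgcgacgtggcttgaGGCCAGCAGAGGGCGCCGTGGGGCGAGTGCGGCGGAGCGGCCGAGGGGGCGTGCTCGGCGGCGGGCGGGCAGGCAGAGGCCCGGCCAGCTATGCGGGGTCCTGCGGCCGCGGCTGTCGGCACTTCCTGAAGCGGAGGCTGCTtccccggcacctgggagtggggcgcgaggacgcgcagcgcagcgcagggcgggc
Neither window held the letters CTTTGA on either strand, and other forms of the TCF motif were not searched for. Both genes have another RefSeq start whose promoter held an ATAC region in all 5 libraries and no base of a TCF1 peak.

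The authors' deposited table of the comparison gave 15 of the 32 genes as significant, 9 higher and 6 lower, beside 45.8% of 13060 loci tested in it. All 15 had the direction found here. The remaining 2, Cd3g and Cd247, were at q = 0.0644 and q = 0.272 in the authors' deposited table. Strand of the libraries is not given in the sources used here, so fragments of Plcg1 and Zhx3, Ubash3a and Rsph1, Dgka and Pmel, Nfatc3 and Esrp2, and Cd247 and Pou2f1, whose spans overlap, cannot be told apart where they do.

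Another 80 genes of the pathway, listed by role and all tested, also moved in both directions. In CAT 23 were higher, 17 were lower and 40 did not pass, so as many passed as did not, a share close to the 49.0% of all tested genes (25.5% higher and 23.5% lower), and their median log2 change was 0.02. Of 13 further kinases and phosphatases 2 rose and 3 fell. The adaptor gene Lax1, an inhibitor of receptor signals, fell by 1.02 ± 0.0853 (adjusted p = 1.75e-05) and the phosphatase gene Ptpn7 rose by 0.48 ± 0.0959. Of 17 adaptor and cytoskeleton genes 6 rose and 2 fell. Nck2, which couples the receptor to actin, rose from 31.2 ± 0.812 to 62.8 ± 9.11 CPM, whereas Tespa1, a regulator of calcium release, fell by 0.74 ± 0.0982. The 18 calcium and calcineurin genes split into 5 higher and 4 lower. Ppp3cc, a catalytic subunit of calcineurin, rose from 54.6 ± 5.8 to 122 ± 5.27 CPM (adjusted p = 1.53e-05), and Rcan1, an inhibitor of calcineurin, fell by 0.68 ± 0.117. Among 18 Ras and MAP kinase genes 5 rose and 6 fell, with the antagonist Spry1 falling from 21.7 ± 2.95 to 8.81 ± 0.189 CPM and the exchange factor Sos2 falling by 0.77 ± 0.0902. Among 14 genes from PI3 kinase and protein kinase C to NF-kB 5 rose and 2 fell. The lipid phosphatase gene Inpp5d rose by 0.62 ± 0.105, although its FPKM estimate failed in WT replicate 3 and the value rests on the fragment counts.

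Open chromatin at the 32 genes, taken as the gene span with 5 kb on either side, held 243 ATAC regions made by joining the authors' peaks of all 5 libraries. Every gene had at least 1 region with a peak in all 5 libraries, as did 87.0% of 12540 tested genes with a RefSeq span. Of the 243 regions 99 were common to all 5 libraries, 27 had a peak in all 3 WT and no CAT library (called lost here), 6 had a peak in both CAT and no WT library (gained), and 111 showed another pattern. As shares these were 40.7%, 11.1% and 2.47%, against 40.4%, 12.4% and 3.94% of all 49014 regions. The shares were near those of all regions. With 3 against 2 libraries no exact test of a region can pass 0.05, and none was run. The CAT lists were also shorter, with 27129 and 29548 peaks against 33204 to 41197 in WT, and their peaks narrower, with a median width of 254 bases against 384 to 399. The part of this difference in the lost regions was not tested. Lost regions at the signalling genes had a median width of 418 bases, gained ones 159.5 and common ones 686.

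**Figure D4:**
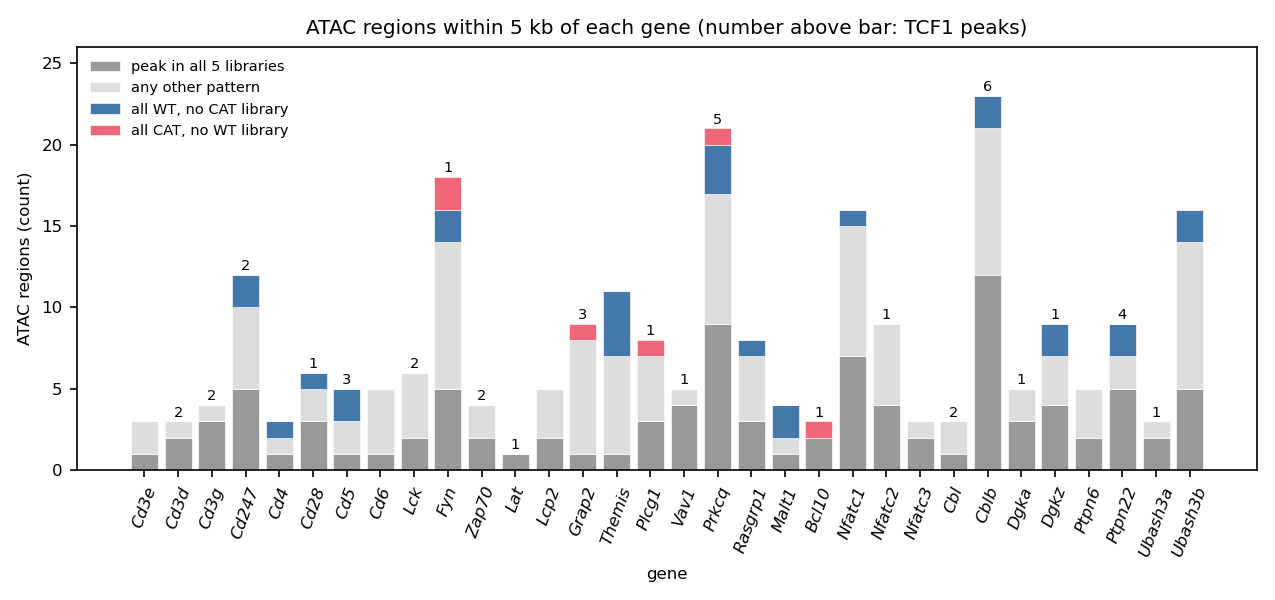
Number of ATAC regions within 5 kb of each gene by the libraries that had a peak there, with the number of TCF1 peaks above the bar. Cblb, with 23 regions, and Prkcq, with 21, held the most regions and also the most TCF1 peaks, 6 and 5.

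Lost regions lay at 14 of the genes, 43.8% against 20.4% of tested genes, and gained regions at 5, 15.6% against 6.38%. The signalling genes span a median of 46652 bases, against 21713.5 for tested genes, and held 102 regions of any kind per megabase of window against 44.5, so the shares of genes are not like for like. Themis held the most lost regions, 4, all within the gene and 26821 to 175952 bases past its start (distances are to the centre of the region from the nearest RefSeq start), beside the change in RNA that did not pass. Peaks at Themis numbered 8, 9 and 6 in the WT libraries and 2 and 1 in the CAT libraries. Prkcq, which fell, held 3 lost regions within the gene and 1 gained region 1751 bases before its start. Fyn, which also fell, held 2 of each within the gene. Lost regions came in pairs at Cd247, Cd5, Malt1, Cblb, Dgkz, Ptpn22 and Ubash3b and singly at Cd4, Cd28, Rasgrp1 and Nfatc1. The single gained regions lay at Grap2, Plcg1 and Bcl10.

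Lost and gained regions were found at genes of either RNA direction. Of the 9 genes that rose 5 held a lost region and 1 a gained one, of the 8 that fell 5 held a lost and 3 a gained one, and of the 15 others 4 and 1 did. Malt1, the gene that rose most, held 2 lost regions just beyond the end of its span with the higher coordinate, at chr18:65479148-65479582 and chr18:65481227-65481510 (mm10), and no gained region. Cblb, which rose, held its 2 lost regions 76532 and 123836 bases past the start. At Ptpn22, which rose, they lay 27238 and 47552 bases past the nearest start, and at Cd247, which fell, 14736 and 40075 bases past it. Ptpn6, which fell most, held 5 regions, none of them lost or gained. The lost regions nearest to a start were centred 303 bases past the 5′ end of the Dgkz span and 715 bases past a start of Ubash3b. That at Dgkz, chr2:91975831-91976450 (mm10), reached over the 5′ end of the span, a start that has no entry among the promoter sequences. Of the 27 genes with a RefSeq promoter entry 21 had a region of all 5 libraries at a promoter, and none of the 39 promoter windows listed for them held a lost or gained region.

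**Figure D5:**
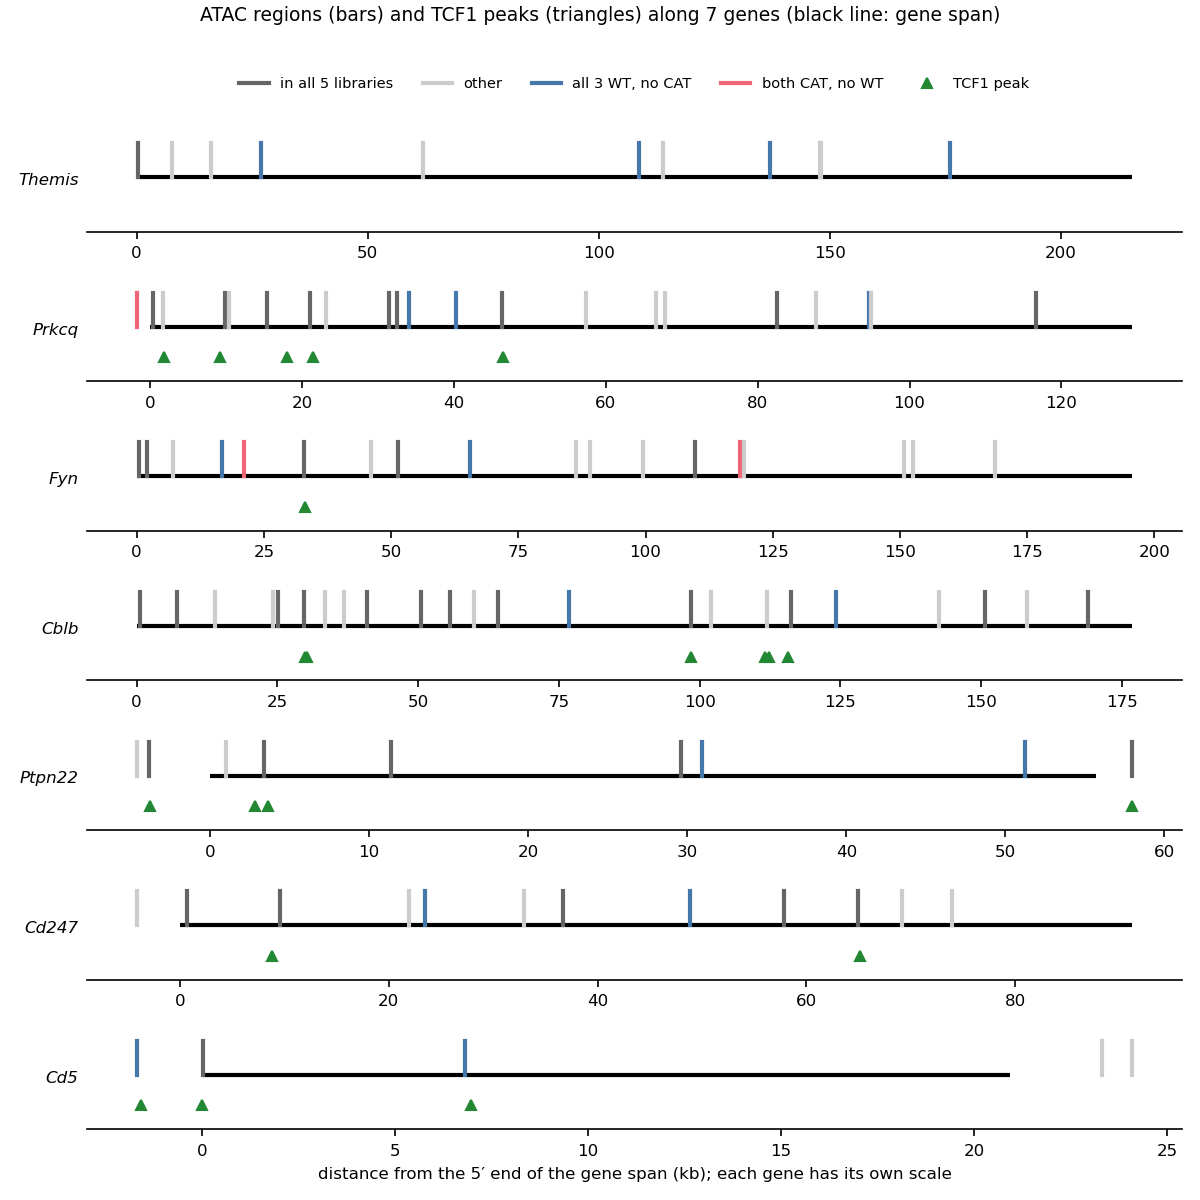
ATAC regions (vertical bars, coloured by the libraries with a peak) and TCF1 peaks (triangles) along 7 genes, by distance from the 5′ end of the gene span in kilobases, with the span as a black line and a separate scale for each gene. Lost regions lie within the genes, except 1 upstream of Cd5, and at Cd5 alone of these 7 genes TCF1 peaks lie on lost regions.

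TCF1 peaks of WT cells lay at 21 of the 32 genes, 65.6%, against 38.6% of tested genes. Per megabase of window these genes held 17.6 TCF1 peaks against 7.32 for tested genes, a difference of about the same size as that in ATAC regions of any kind. With a single library this has no replicate check. The 42 peaks were most numerous at Cblb with 6, Prkcq with 5, Ptpn22 with 4, and Cd5 and Grap2 with 3 each. Peaks were present at 5 of the 9 genes that rose, 7 of the 8 that fell and 9 of the 15 others. Malt1 and Ptpn6, the genes with the largest changes, had none within 5 kb, and neither had Cd3e, Cd4, Cd6, Lcp2, Themis, Rasgrp1, Nfatc1, Nfatc3 and Ubash3b. At Cd28 the peak at chr1:60746178-60746319 lay within an ATAC region of all 5 libraries next to the gene span.

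Most of the TCF1 peaks lay on chromatin called open in all 5 libraries. Of the 42 peaks 31 (73.8%) lay on such regions, 4 (9.52%) on regions of other patterns and 5 (11.9%) outside any region. None lay on a gained region. Over all 5876 TCF1 peaks 86.4% lay on common regions, 6.13% on regions of other patterns and 4.95% outside any region. The 2 peaks on lost regions were both at Cd5, one 1576 bases before its start at chr19:10740532-10740673 and one 6929 bases past it at chr19:10731975-10732116, so 4.76% of peaks at the signalling genes lay on lost regions against 2.45% of all peaks. The third peak of Cd5 sat at its start on a region of all 5 libraries. Peaks of the Cd5 window numbered 5, 5 and 3 in the WT libraries and 1 in each CAT library. Cd5 RNA was 402 ± 41.8 CPM in CAT and 464 ± 27.6 in WT, the change given above that did not pass. RNA of Tcf7, which encodes TCF1, was at 162, 145 and 159 CPM in WT and at 62.3, 71.4 and 140 CPM in CAT, and whether TCF1 still bound these sites in CAT cells was not measured. Listed promoter windows of 9 genes held a TCF1 peak, each on a region of all 5 libraries. The genes were Zap70, Cd247, Dgkz, Ptpn22, Lat, Cbl, Cd3g, Ubash3a and Cd5. Of these 2 rose, 3 fell and 4 did not pass. Starts with no entry among the promoter sequences are not in this tally. Grap2, which fell, held a peak on a region of all 5 libraries just before the 5′ end of its span, which has no entry. Cd28, which also fell, has no entry, and its peak next to the span is given above.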

How the data were processed

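RNA-seq, ATAC-seq and TCF1 ChIP-seq of sorted regulatory T cells were used; the ChIP input was not used here. Per the submitters' processing notes Bowtie, HOMER, MACS2 and build mm10 were used, while RNA aligner and annotation are not given in the sources read. Per the file headers the RNA files are Cuffdiff output, in which the authors deposited an estimated count of fragments for each gene and library, FPKM scaled between libraries, and group FPKM with p-value and q-value for each locus. Of the estimated counts 92.53% were whole. They were rounded and tested with edgeR 4.0.16 in R 4.3.3 (quasi-likelihood, TMM, filter by expression), CAT against WT, with Benjamini-Hochberg adjustment across every tested gene. Left out were 27 identifiers turned into dates, holding 0.2653% to 0.2813% of fragments, and 13 failed estimates. The authors' deposited table, which has no gene names, was joined through FPKM (relative tolerance 0.0001).

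The authors' ATAC tables give, per the file headers, peak positions, a pileup signal and −log10 p and q values, and were called per library. Scores seem not to belong to the positions beside them (rank correlation of width and pileup 0.0381 to 0.0547 across peaks), so only positions were used, except in 1 alternative. Peaks were joined at an overlap of 1 base. Gene spans and promoter sequences are from RefSeq, GRCm38.p6. Depth is unknown for ATAC and ChIP.

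The members, the role groups and the other gene lists were chosen with earlier results of these data known. All members are named, and of the other pathway genes the 2 per role that changed most among called genes at a mean FPKM of at least 1; some genes this names are not reported here. Alternatives were DESeq2 1.42.0, other size factors, no filter, limma 3.58.1 on log2(FPKM + 1) or log2(FPKM + 0.1), omitted libraries, a replicate block, other windows and other peak criteria.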

Additional observations from a re-analysis of the deposited data

How the results depend on the processing

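Of 512 repeats of the 32 genes' changes under 16 alternatives each, 433 kept their direction and side of the threshold, 47 lost a call, 6 gained one and 26 changed sign, the last all in genes that had not passed. No called gene changed sign, 12 of the 17 calls held whichever library was left out, and 8 held in every alternative (Cd28, Grap2, Prkcq, Malt1, Cblb, Ptpn6, Ptpn22 and Ubash3b). The cause of the shifts was not tested. Counting error of the fragments is small at these levels, while 3 libraries per genotype limit the precision and no depth is known for the peaks.

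Calls over all genes numbered 3933, 3908 and 3882 with limma on log2(FPKM + 1), on log2(FPKM + 0.1) and without a filter, 4042 after quantile normalization, and 3585 with WT replicate 2 standing alone for WT, which was then assumed to vary like the CAT libraries. Signalling genes higher numbered 9 in every leave-one-out run, and 5 both after quantile normalization and with WT replicate 2 alone. Those lower ranged from 4 to 9 with 1 library left out (5 without CAT replicate 1, 4 without CAT replicate 2), and were 5 in each of the first 3 limma fits, 10 after quantile normalization and 4 with WT replicate 2 alone. Higher calls thus made up 33.3% of calls after quantile normalization against 52.9%, and over all genes 45.5% against 52.1%. The other pathway genes higher were 12, 12, 11 and 10 in the 4 limma fits and 9 with WT replicate 2 alone, and those lower 11, 11 and 9 in the first 3. Leaving out CAT replicate 3 with WT replicates 1 and 3, an alternative chosen after seeing the data, left 9 signalling genes higher and 7 lower.

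Deviations of same-numbered libraries correlated at 0.0614, -0.0864 and 0.159, and those of differently numbered ones at -0.212 to 0.236. Replicate numbers were used as names only, so these values cannot show whether samples were paired. With the replicate block 6384 genes passed, and of the signalling genes 9 higher and 7 lower, with Cd247 losing its call (adjusted p = 0.0609) and Ubash3a at -0.0018.

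Leaving out 1 library moved Lck between -0.16 and 0.01, Bcl10 between -0.04 and 0.08, Nfatc3 between -0.02 and 0.07, Dgka between -0.03 and 0.15 and Ubash3a between -0.11 and 0.09. Signs changed at Cd3d to 0.04 and Lck to 0.01 without CAT replicate 1. Cd4 went to -0.14, Bcl10 to -0.04, Nfatc3 to -0.05, Dgka to -0.23 and Ubash3a to -0.17 after quantile normalization. Without CAT replicate 3 Cd6 went to 0.04, Dgka to -0.03 and Ubash3a to -0.11, and with WT replicates 1 and 3 also left out Cd6 went to 0.05, Cbl to -0.10, Dgka to -0.11 and Ubash3a to -0.17. Bcl10 reached -0.01 without WT replicate 3 and -0.04 without CAT replicate 1. Nfatc3 reached -0.01 without WT replicate 1, -0.0047 without CAT replicate 1 and -0.02 without CAT replicate 2. With WT replicate 2 alone Cbl went to -0.02 and Ubash3a to -0.05, and Ubash3a was at -0.06 without WT replicate 1, -0.0048 and -0.0049 with limma at pseudocounts of 1 and 0.1, and -0.0048 without a filter.

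Common ATAC regions at the genes fell from 99 to 28, and lost ones rose from 27 to 57, when a library's peaks had to cover 50% of a region, a criterion chosen after seeing the data. With peaks at or above the median of the values taken as −log10 q in their list, 6 were common and 5 lost. These scores seem not to match the positions. Common regions ranged from 101 to 112, lost ones from 29 to 42 and gained ones from 6 to 11 with 1 library left out, the highest lost count without WT replicate 3 and the highest gained count without either CAT library. Gained regions numbered 13 with 20 kb on either side. A TCF1 peak lay at 16 genes with no extension and 24 with 20 kb. Requiring 50% of the shorter of peak and region changed nothing, by its construction.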
